A study of Mus musculus with 18 samples.

Results

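The genes described here are the suppressors of cytokine signalling, *Socs1* to *Socs7*, and *Cish*, which encodes the related protein CIS. They were found by gene symbol in the Ensembl rows of the count files, and all 8 members were present, among 55029 genes for 12 libraries and among 54232 genes for 6 others. Many cytokine receptors without a kinase domain signal through Janus kinases, which phosphorylate STAT transcription factors. Several genes of the SOCS family are STAT targets whose proteins bind the receptor or the kinase and shut the signal down. Each protein has an SH2 domain that recognizes phosphotyrosine and a SOCS box that recruits a ubiquitin ligase. Eosinophils respond to cytokines that signal in this way, among them IL-5, IL-3, GM-CSF, IL-4 and IFN-γ.

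RNA was sequenced from mouse eosinophils given bacteria or cytokines, in 18 libraries, 3 for each of 6 groups. All groups were C57BL/6 cells of the NJ.1638 line, mice with an *Il5* transgene and a large excess of eosinophils. Peritoneal cells were taken, and those held by beads against Thy1.2 and B220 were removed. The study checked purity by flow cytometry, set high thresholds for purity and viability, and names lymphocytes as most of the contaminating cells. The purified cells were kept for 18 h. They received heat-inactivated *E. coli*, IFN-γ at 50 ng/ml, IFN-γ at 50 ng/ml together with heat-inactivated *E. coli*, IL-4 at 100 ng/ml, or no stimulus. Unstimulated libraries a to c belong with the *E. coli*, IFN-γ and combined libraries, here the 12-library set, and unstimulated libraries d to f with the IL-4 libraries, here the 6-library set. The study calls its replicates biological. The age of the mice and whether each library came from a separate animal are not given in the sources used here, so p-values measure only the spread between these libraries.

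The gene counts of a library added up to between 1523808 and 2734041 in the 12-library set and between 3625036 and 6482289 in the 6-library set. A count of 3, taken as the smallest to be told from 0, was worth 1.10 to 1.97 counts per 1000000 (CPM) in the former and 0.463 to 0.828 CPM in the latter, which covers counting error only. The largest count of any gene was 4089 to 4095 in the 12-library set and 87377 to 191131 in the 6-library set. Whether both sets count the same unit is therefore not certain, and levels are compared only within a set. Levels are given as CPM after TMM normalization, which scales libraries to each other. Changes are log2 fold changes ± SE with p from the quasi-likelihood test of edgeR, adjusted by Benjamini-Hochberg over all genes tested, and a gene was called at an adjusted p under 0.05. Unstimulated library e stood apart, with a chi-square per gene of 23.68 against library d and 21.96 against library f, beside 7.86 between d and f and 1.64 to 6.04 for the pairs of other groups. In these bulk samples fewer cells of a type and less RNA per cell cannot be told apart.

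In the GRCm38 build *Socs1* lies at chr16:10782240-10785536, *Socs2* at chr10:95385362-95417180, *Socs3* at chr11:117966079-117970047 and *Cish* at chr9:107296026-107302784. All 8 members passed the filter on low counts in each model. With *E. coli*, 4 members rose against unstimulated libraries a to c and none fell, where 13.5% of the 9883 genes tested rose and 16.7% fell. With IFN-γ, 1 member rose and 1 fell, where 15.6% of genes rose and 16.0% fell. With IFN-γ and *E. coli* together, 4 members rose and 1 fell, where 23.9% of genes rose and 25.2% fell. With IL-4, 3 members rose against unstimulated libraries d to f and none fell, where 5.97% of the 10556 genes tested rose and 4.35% fell. The share of genes called with IL-4 in either direction depended on single libraries, with 4.46%, 4.58% and 4.74% without IL-4 library 1, 2 or 3 and 12.8% without unstimulated library e. The median log2 fold change of the 8 members was 0.50 for *E. coli*, 0.08 for IFN-γ, 0.40 for both together and 0.45 for IL-4, beside medians over all genes of -0.02, -0.03, -0.04 and 0.00.

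**Figure D1:**
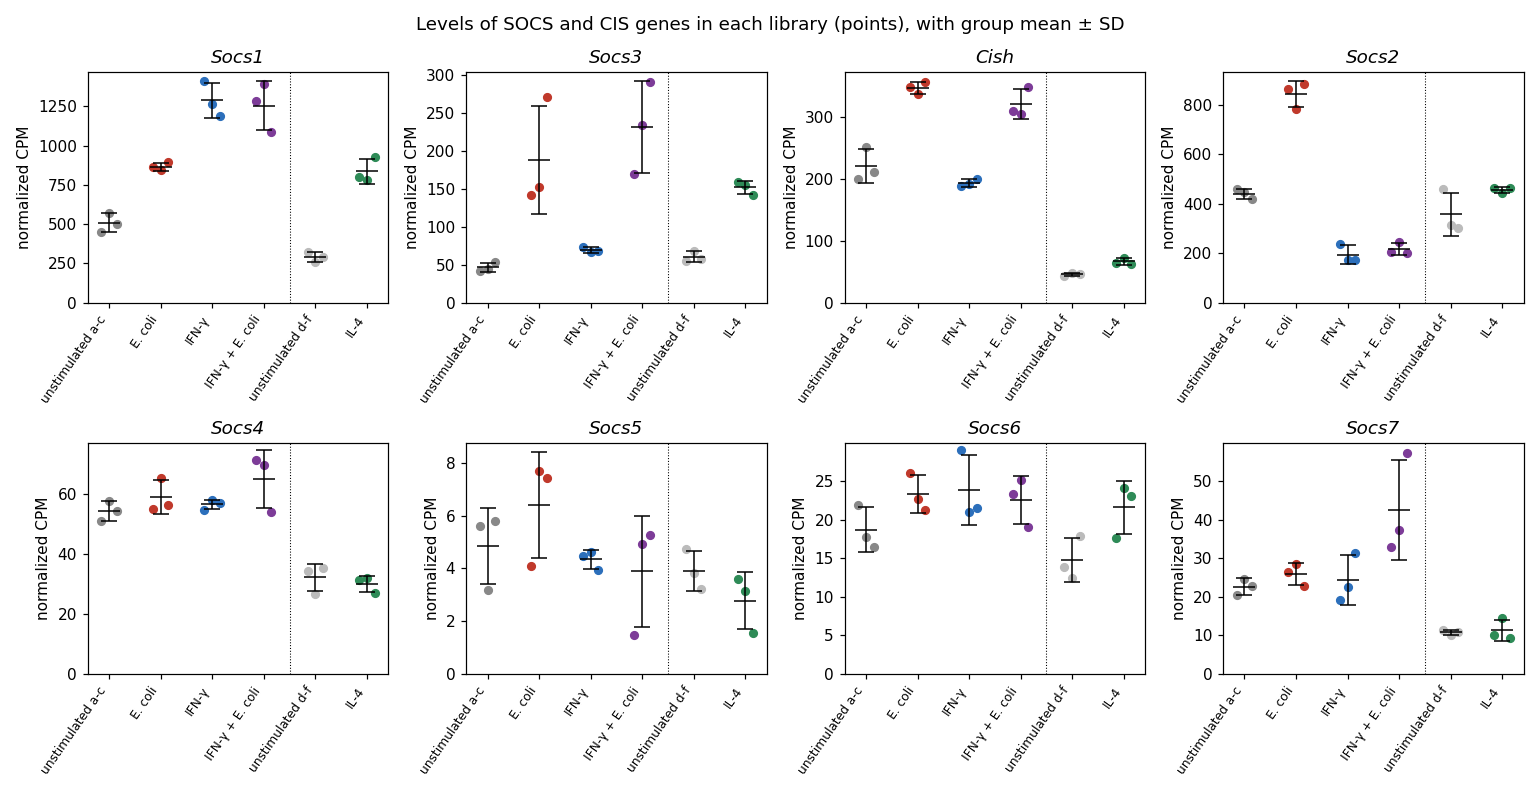
Normalized CPM (vertical axes, linear, from 0) of each member in the 3 libraries of each group (points), with the group mean and SD (bars); the dotted line separates the 12-library set (left) from the 6-library set (right). *Socs2* was at 171 to 238 CPM with IFN-γ and at 783 to 883 CPM with *E. coli*, on either side of the unstimulated libraries a to c at 418 to 458 CPM.

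*Socs1* encodes an inhibitor that blocks the Janus kinases directly and restrains signalling by IFN-γ and IL-4. It was at 450.5, 574 and 503 CPM in unstimulated libraries a, b and c, at 861.5, 843 and 892 CPM in *E. coli* libraries 1, 2 and 3, and at 1411, 1261 and 1188 CPM in the IFN-γ libraries. With both stimuli it was at 1282, 1392 and 1085 CPM. The unstimulated libraries were the lowest and the *E. coli* libraries lay between them and all 6 libraries with IFN-γ, with no overlap, while the libraries with IFN-γ alone and with both stimuli overlapped. *Socs1* rose by a log2 fold change of 0.77 ± 0.12 with *E. coli* (adjusted p = 9.89e-05, edgeR's quasi-likelihood test), 1.34 ± 0.12 with IFN-γ (adjusted p = 1.50e-07) and 1.30 ± 0.12 with both (adjusted p = 7.78e-08). In the 6-library set it was at 320, 259 and 293 CPM in unstimulated libraries d, e and f and at 800, 778 and 925 CPM in the IL-4 libraries, again without overlap, a log2 fold change of 1.52 ± 0.13 (adjusted p = 9.61e-05). Without unstimulated library e, which stands apart, it was 1.44. *Socs1* was thus called higher under each of the 4 stimuli. Its counts in the 12-library set reached 2541, beside a largest count of 4095 for any gene. After a correction that treats counts as molecules told apart by identifiers of 6 bases, which collide at high counts, the log2 fold changes with *E. coli*, IFN-γ and both stimuli were 1.05, 1.69 and 1.58.

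*Socs3* encodes a second direct inhibitor of Janus kinases, which acts at receptors of the gp130 type and at the G-CSF receptor. It was at 41.7, 44.4 and 53.7 CPM in unstimulated libraries a to c, at 141.5, 152 and 271 CPM with *E. coli*, at 73.9, 66.6 and 68.0 CPM with IFN-γ, and at 169, 234 and 290 CPM with both. The unstimulated, IFN-γ and *E. coli* libraries did not overlap, and *E. coli* library 3 stood above the other *E. coli* libraries. *Socs3* rose by a log2 fold change of 2.00 ± 0.23 with *E. coli* (adjusted p = 2.00e-06, edgeR's quasi-likelihood test) and 2.31 ± 0.23 with both stimuli (adjusted p = 1.22e-07), larger changes than those of the other members in these comparisons. Without *E. coli* library 3 the value with *E. coli* was 1.66. With IFN-γ alone it had a log2 fold change of 0.57 ± 0.24, which missed the threshold (adjusted p = 0.0814) and passed it when only the 6 libraries compared were fitted (adjusted p = 0.00543), over a range of 0.00174 to 0.697 across all alternatives. It also passed without *E. coli* library 3 (adjusted p = 0.0167) and without library 1 (adjusted p = 0.0465) or library 3 (adjusted p = 0.0416) of IFN-γ with *E. coli*. In the 6-library set *Socs3* was at 55.55, 68.6 and 58.1 CPM in unstimulated libraries d to f and at 159, 155 and 142 CPM with IL-4, without overlap, a log2 fold change of 1.32 ± 0.13 (adjusted p = 2.37e-04), which was 1.41 without library e.

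*Cish* encodes CIS, which competes for receptor sites used by STAT5 and is a classic target of STAT5 downstream of IL-3, IL-5 and GM-CSF. It was at 200.5, 252 and 211 CPM in unstimulated libraries a to c, at 349, 338 and 357 CPM with *E. coli*, at 189, 192 and 200 CPM with IFN-γ, and at 310, 305 and 349 CPM with both. Each library with *E. coli*, alone or with IFN-γ, lay above each unstimulated library, and the IFN-γ libraries lay just below the unstimulated ones. *Cish* rose by a log2 fold change of 0.66 ± 0.11 with *E. coli* (adjusted p = 1.08e-04, edgeR's quasi-likelihood test) and 0.54 ± 0.11 with both stimuli (adjusted p = 3.88e-04), and had a log2 fold change of -0.19 ± 0.11 with IFN-γ alone (adjusted p = 0.206). In the 6-library set it was at 43.05, 47.9 and 46.1 CPM in unstimulated libraries and at 64.5, 72.6 and 62.7 CPM with IL-4, without overlap. This log2 fold change of 0.54 ± 0.14 (0.58 without library e) was called (adjusted p = 0.0311), but the call was lost on leaving out any single library of this set other than unstimulated library e, with adjusted p from 0.0120 to 0.160 over the 6 such fits and from 0.00130 to 0.303 over all alternatives. Against all 6 unstimulated libraries as 1 group, which mixes the sets, its log2 fold change was -0.64 (adjusted p = 0.303). On the opposite strand *Gm17040* and *Gm17041* overlap exons of *Cish*, and without knowledge of the strand setting their reads cannot be told apart from its own.

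*Socs2* encodes an inhibitor best known for limiting growth hormone signalling, and it is also a STAT5 target. It was at 458, 445.5 and 418 CPM in unstimulated libraries a to c, at 864, 783 and 883 CPM with *E. coli*, at 238, 174 and 171 CPM with IFN-γ, and at 204.5, 247 and 199 CPM with both. The *E. coli* libraries were all above and the libraries with IFN-γ, alone or with *E. coli*, all below the unstimulated libraries. *Socs2* rose by a log2 fold change of 0.94 ± 0.13 with *E. coli* (adjusted p = 1.38e-05, edgeR's quasi-likelihood test), and its log2 fold change was -1.18 ± 0.13 with IFN-γ (adjusted p = 1.36e-06) and -1.02 ± 0.13 with both (adjusted p = 3.28e-06). It was the only member called lower in any comparison with unstimulated libraries. In the 6-library set it was at 458.5, 314 and 300.3 CPM in unstimulated libraries d, e and f and at 463, 442 and 463 CPM with IL-4. Library d lay within the range of the IL-4 libraries, and the log2 fold change of 0.35 ± 0.16 missed the threshold (adjusted p = 0.202). It was 0.57 and passed without library d (adjusted p = 0.0168, with a range of 0.0168 to 0.432 over the alternatives), and was 0.27 without library e. Of its 50-base transcript stretches, 4.53% also occur in transcripts of other genes.

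*Socs4*, *Socs5*, *Socs6* and *Socs7* encode the members with long amino-terminal regions, for which links to receptor tyrosine kinases and insulin receptor substrates are better known than links to cytokine receptors. *Socs7* was at 20.5, 24.7 and 22.7 CPM in unstimulated libraries a to c, at 26.5, 28.4 and 22.7 CPM with *E. coli*, at 19.0, 22.55 and 31.4 CPM with IFN-γ, and at 32.9, 37.3 and 57.4 CPM with both. The libraries with both stimuli lay above all others of the set, and library 3 of that group was the highest. *Socs7* rose with both stimuli by a log2 fold change of 0.92 ± 0.22 (adjusted p = 0.00172, edgeR's quasi-likelihood test), and its log2 fold change was 0.22 ± 0.22 with *E. coli* (adjusted p = 0.496) and 0.10 ± 0.23 with IFN-γ (adjusted p = 0.779). With IL-4 it was at 9.33 to 14.5 CPM, beside 10.1 to 11.4 CPM in unstimulated libraries d to f.

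*Socs4*, *Socs5* and *Socs6* were not called against unstimulated libraries. *Socs4* ranged from 51.05 to 71.6 CPM over the 12-library set and from 26.8 to 35.3 CPM over the 6-library set, with every neighbouring pair of groups overlapping. Its log2 fold change with both stimuli, 0.26 ± 0.14 (adjusted p = 0.125), passed without library 3 of that group (0.40, adjusted p = 0.0282) and against all 6 unstimulated libraries (0.49, adjusted p = 0.0124), with adjusted p from 0.0124 to 0.313 over the alternatives. *Socs6* ranged from 16.5 to 29.1 CPM and from 12.4 to 24.1 CPM. Its log2 fold change with IL-4 was 0.55 ± 0.21 (adjusted p = 0.139, edgeR's quasi-likelihood test). It passed in a fit of all 18 libraries (adjusted p = 0.0428) and against all 6 unstimulated libraries (adjusted p = 0.0304), with a range of 0.0304 to 0.392. Of *Socs6*, 6.14% of the 50-base stretches of the transcripts also occur in transcripts of other genes. *Socs5* was the lowest member, at 1.46 to 7.69 CPM and 1.555 to 4.72 CPM, with counts of 2 to 23, so that differences in it were hardly detectable at this depth.

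**Figure D2:**
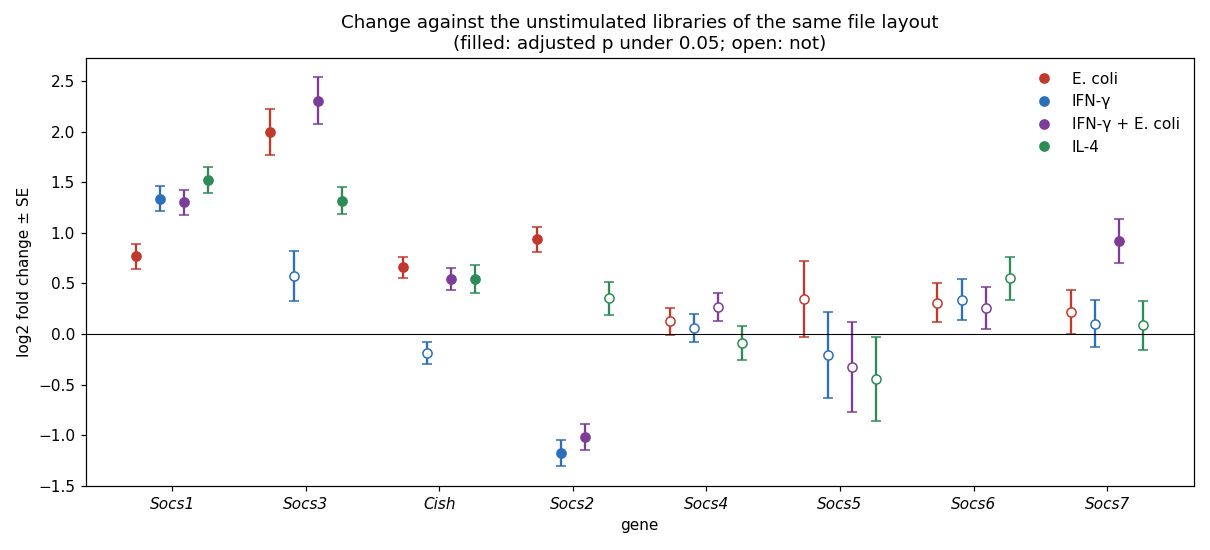
Log2 fold change of each member (vertical axis, points) with its SE (bars) under each stimulus, against the unstimulated libraries of the same set; filled points passed an adjusted p of 0.05 and open points did not. *Socs1* lies above 0 with filled points under all 4 stimuli, and *Socs2* lies above 0 with *E. coli* and below 0 with IFN-γ.

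The stimuli were then compared with each other. Between *E. coli* and IFN-γ, 4 members differed, where 25.5% of genes did. *Socs2* was higher with *E. coli* by a log2 fold change of 2.12 ± 0.13 (adjusted p = 5.98e-10, edgeR's quasi-likelihood test), *Socs3* by 1.43 ± 0.22 (adjusted p = 6.44e-05) and *Cish* by 0.85 ± 0.11 (adjusted p = 7.04e-06). *Socs1* was lower with *E. coli*, with a log2 fold change of -0.57 ± 0.12 (adjusted p = 0.00151).

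Adding *E. coli* to IFN-γ changed 3 members, where 12.2% of genes were called, a share of 7.25% without IFN-γ library 1 and 7.59% without library 2 of IFN-γ with *E. coli*. *Socs3* rose by 1.74 ± 0.22 (log2; adjusted p = 2.98e-05, edgeR's quasi-likelihood test), *Cish* by 0.73 ± 0.11 (adjusted p = 1.71e-04) and *Socs7* by 0.82 ± 0.22 (adjusted p = 0.0204). *Socs1* and *Socs2* had log2 fold changes of -0.04 ± 0.12 and 0.16 ± 0.13, neither called. Adding IFN-γ to *E. coli* changed 3 members, where 32.8% of genes were called. The log2 fold change of *Socs2* was -1.96 ± 0.13 (adjusted p = 1.48e-09), *Socs1* rose by 0.53 ± 0.12 (adjusted p = 0.00229) and *Socs7* by 0.70 ± 0.21 (adjusted p = 0.0144). The call of *Socs7* rested on single libraries. Without library 3 of IFN-γ with *E. coli* its log2 fold change was 0.54 against IFN-γ (adjusted p = 0.121) and 0.43 against *E. coli* (adjusted p = 0.128), and the call against IFN-γ was also lost without IFN-γ library 1 (adjusted p = 0.114) or 2 (adjusted p = 0.0838). Over all alternatives adjusted p for *Socs7* ran from 0.00530 to 0.121 against IFN-γ and from 0.00719 to 0.128 against *E. coli*. *Socs3* had a log2 fold change of 0.31 ± 0.20 on adding IFN-γ to *E. coli* (adjusted p = 0.262), and without *E. coli* library 3 it was 0.65 (adjusted p = 0.00516, with a range of 0.00516 to 0.707). With the replicate number as a block, 3 members were called on adding *E. coli* to IFN-γ, 3 on adding IFN-γ to *E. coli* and 4 between *E. coli* and IFN-γ, where 15.1%, 36.5% and 29.1% of genes were called in that fit.

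The interaction tests whether the effect of both stimuli departs from the sum of their log2 effects. It was called for 2 members, where 4.62% of genes were called. For *Socs1* the joint effect fell short of the sum, with a log2 difference of -0.81 ± 0.17 (adjusted p = 0.0102, edgeR's quasi-likelihood test), and for *Socs2* the difference was -0.78 ± 0.18 (adjusted p = 0.0184). Without IFN-γ library 1 the value for *Socs2* was -0.62 (adjusted p = 0.0600, with a range of 3.73e-04 to 0.0600 over the alternatives). For *Socs3* and *Cish* the log2 differences were -0.26 ± 0.32 and 0.07 ± 0.15, and for *Socs7* it was 0.60 ± 0.31 (adjusted p = 0.346), so a departure of *Socs7* from the sum was not shown. Without library 3 of IFN-γ with *E. coli* it was 0.30, and over the left-out libraries it ran from 0.30 to 0.79.

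A model of all 18 libraries set the IL-4 response beside the other responses, in which each stimulus was set against its own unstimulated libraries. These differences also carry any difference in how the sets were made. Against the response to *E. coli*, 2 members differed, where 28.1% of genes did. *Socs1* responded more to IL-4 by 0.74 ± 0.18 (log2; adjusted p = 0.00322, edgeR's quasi-likelihood test), a difference that was 0.46 (adjusted p = 0.116, with a range of 4.50e-04 to 0.116) after the correction for identifier collisions. *Socs2* had a difference of -0.60 ± 0.21 (adjusted p = 0.0333), which missed the threshold on leaving out unstimulated library a, c or d, *E. coli* library 1 or 3, or any IL-4 library (-0.39 without library d), with adjusted p from 0.0129 to 0.109 over the 18 such fits, and with a filter of 10 counts in every library (adjusted p = 0.0606, with a range of 0.00322 to 0.109). Over all alternatives the difference of *Socs2* ran from -0.88 to -0.39. For *Socs3* the difference was -0.70 ± 0.29 (adjusted p = 0.0746), which passed with no filter on low counts (adjusted p = 0.0142) and without *E. coli* library 1 (adjusted p = 0.0291) or 2 (adjusted p = 0.0439), and was -0.36 without *E. coli* library 3 (adjusted p = 0.278), the ends of its range being 0.0142 and 0.278.

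Against the response to IFN-γ, 2 members differed, where 27.8% of genes did. *Socs2* responded more to IL-4 by 1.50 ± 0.21 (log2; adjusted p = 1.47e-05, edgeR's quasi-likelihood test) and *Cish* by 0.70 ± 0.16 (adjusted p = 0.00186). For *Socs3* the difference was 0.71 ± 0.30 (adjusted p = 0.0811), which passed with no filter (adjusted p = 0.0190), with 10 counts in every library (adjusted p = 0.0361) and without *E. coli* library 3 (adjusted p = 0.0256), with a range of 0.0190 to 0.208. Against the response to IFN-γ with *E. coli*, 3 members differed, where 39.2% of genes did. *Socs2* had a difference of 1.31 ± 0.21 (adjusted p = 3.77e-05), *Socs3* of -1.05 ± 0.29 (adjusted p = 0.00620) and *Socs7* of -0.88 ± 0.32 (adjusted p = 0.0336). The call of *Socs7* was lost on leaving out unstimulated library a, c, d or f, library 3 of IFN-γ with *E. coli*, or IL-4 library 1 or 3, with adjusted p from 0.0111 to 0.151. It was also lost with no filter on low counts (adjusted p = 0.0743) and with a filter of 10 counts in every library (adjusted p = 0.0660). *Socs4*, with a difference of -0.41 ± 0.21 (adjusted p = 0.124), passed without unstimulated library e (-0.54, adjusted p = 0.0382, with a range of 0.0382 to 0.526).

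Between genes, levels were compared per kilobase of exon, although reads of CEL-Seq2 libraries come from the poly(A) end of transcripts and may depend little on length. In unstimulated libraries a to c *Socs1* was the highest, at a mean of 175 CPM per kilobase, followed by *Socs2* at 46.2, *Cish* at 34.5, *Socs3* at 16.1 and *Socs4* at 7.91. *Socs7*, *Socs6* and *Socs5* were at 3.12, 1.65 and 0.755 CPM per kilobase. This order depends on the scale, since by CPM not divided by length *Socs1* and *Socs2* lie much closer together and *Socs4* stands above *Socs3*. With IFN-γ and *E. coli* *Socs1* was at 431, *Socs3* at 79.97, *Cish* at 50.04 and *Socs2* at 22.7 CPM per kilobase, so that *Socs2* stood below *Socs3* and *Cish*, which it exceeded in the unstimulated libraries. The summed CPM of the 8 members was 1318 ± 89 (SD, n = 3) in unstimulated libraries a to c, 2359 ± 138 in the *E. coli* libraries, 1853 ± 146 in the IFN-γ libraries and 2156 ± 138 under both stimuli. It was 816 ± 109 in unstimulated libraries d to f and 1575 ± 70 with IL-4.

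The genes most like a member over the 12-library set were found by Pearson's r of log2 CPM among 7922 genes with a mean of at least 10 CPM. These libraries share groups and depth, and r is given as a description. *Socs1* was most like *Tpi1* (r = 0.971), *Ankrd37* (r = 0.968) and *Gpr141* (r = 0.966). *Socs2* was most like *Ccn3* (r = 0.983), *Tuba4a* (r = 0.979) and *B3gnt7* (r = 0.976). *Socs3* was most like *Nupr1* (r = 0.987), *Nfkbia* (r = 0.982), which encodes an inhibitor of NF-κB, and *Slamf1* (r = 0.979). *Cish* was most like *Cyp1b1* (r = 0.962), *Lhfpl2* (r = 0.957) and *U90926* (r = 0.957).

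Of 71 other genes of the pathway, from ligands to targets, 64 were tested in each set. Of these, 22 rose and 9 fell with *E. coli*, 20 rose and 4 fell with IFN-γ, 36 rose and 4 fell with both, and 11 rose and 3 fell with IL-4. With *E. coli* this is 34.4% higher and 14.1% lower, beside 13.5% and 16.7% of all genes, and for IFN-γ 31.2% and 6.25%, beside 15.6% and 16.0%. Under both stimuli it is 56.2% and 6.25%, beside 23.9% and 25.2% of all genes, and for IL-4 17.2% and 4.69%, beside 5.97% and 4.35%. Their median log2 fold changes were 0.16, 0.21, 0.48 and 0.03, where those of all genes were -0.02, -0.03, -0.04 and 0.00. The list was made with earlier results of these data known. It holds genes that the study names as induced, such as the ligands *Il6* and *Il13*, so these shares are not independent of those results. Of 7 ligands tested in the 12-library set, 7 rose with *E. coli*, 1 with IFN-γ and 6 under both stimuli, where 13.5%, 15.6% and 23.9% of all genes did. The filter on low counts may have kept some ligands only for groups where they were high, which would raise these counts. An example is *Csf3*, at means of 5.21 CPM in unstimulated libraries a to c and 70.0 CPM with *E. coli*. Of 6 ligands tested in the 6-library set, 1 rose and 2 fell with IL-4, where 5.97% of all genes rose and 4.35% fell. Among them *Il6* had a mean of 19.85 CPM in unstimulated libraries a to c, 153 with *E. coli*, 43.8 under IFN-γ and 491 under both stimuli, and 16.5 and 77.3 CPM in unstimulated libraries d to f and with IL-4. All 4 changes were called, with log2 fold changes of 2.94 ± 0.20, 1.14 ± 0.23, 4.62 ± 0.20 and 2.24 ± 0.17. *Il5*, the gene that the mice carry as a transgene, had a mean of 516 CPM in unstimulated libraries a to c and 849 CPM with *E. coli*, a called rise.

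Some genes named next had counts near the largest seen in the 12-library set, 4095, so that their changes there may be understated and a missed call says little. The largest counts were 4089 for *Csf2rb*, 3706 for *Gbp2*, 3514 for *Csf2ra*, 3269 for *Ptprc* and 3010 for *Pim1*. Among receptors, *Il4ra* rose with *E. coli* by a log2 fold change of 1.10 ± 0.11 and had a change of 0.19 ± 0.11, not called, with IFN-γ. *Il2rg*, the chain that IL-4 receptors share with others, rose with *E. coli* (0.43 ± 0.11), IFN-γ (1.49 ± 0.11) and both (1.41 ± 0.11). *Ifngr2* rose with *E. coli* (0.57 ± 0.11) and both stimuli (0.34 ± 0.11), and *Ifngr1* had a log2 fold change of -0.56 ± 0.16 with both and rose with IL-4 (0.56 ± 0.13). *Csf2rb*, the chain common to the receptors of IL-3, IL-5 and GM-CSF, rose with IFN-γ (0.51 ± 0.15) and both stimuli (0.73 ± 0.15), and *Csf2ra* was not called under any stimulus. *Il10ra* rose with *E. coli* (0.80 ± 0.13) and *Il10rb* with both stimuli (0.50 ± 0.10).

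Of the Janus kinases, *Jak1* was not called under any stimulus, and *Jak2* had a log2 fold change of -0.32 ± 0.12 with *E. coli* and 0.57 ± 0.11 with IL-4, both called. *Stat3*, which encodes a STAT factor, rose with *E. coli* (0.41 ± 0.12), IFN-γ (1.27 ± 0.12) and both (1.46 ± 0.12). Among targets of STAT factors, *Gbp2* had a log2 fold change of -0.51 ± 0.17 with *E. coli* and rose with IFN-γ (2.43 ± 0.18) and both (2.50 ± 0.18), and *Pim1* rose with *E. coli* (0.34 ± 0.12) and both (0.44 ± 0.12). The counts that follow stand beside 13.5% of all genes higher and 16.7% lower with *E. coli*, 15.6% and 16.0% with IFN-γ, 23.9% and 25.2% under both stimuli, and 5.97% and 4.35% with IL-4. Of the 10 targets on the list, 4 rose and 3 fell with *E. coli*, 5 rose and 1 fell with IFN-γ, 9 rose under both stimuli and 3 rose with IL-4. The study names *Cxcl9*, *Irf1*, *Bcl3* and *Ccl24* among these targets as induced in the same data, so these counts are no independent result. Of 13 other negative regulators, 3 rose with *E. coli*, 1 rose and 1 fell with IFN-γ, 5 rose and 1 fell under both stimuli, and 1 rose with IL-4. The pair with the highest levels were *Usp18*, called with IL-4 (0.51 ± 0.10), and *Ptprc*, called under no stimulus. Of 8 genes of the ligase that the SOCS box recruits, 2 rose with *E. coli*, 3 with IFN-γ and 4 under both stimuli, and none was called with IL-4. The pair with the highest levels, *Elob* and *Rbx1*, were not among those called.

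The 250 bases before the RefSeq start of a gene were searched for letters that STAT and IRF factors are known to bind, since *Socs1* and *Socs3* rose together under several stimuli. RefSeq promoters of the GRCm38.p6 build were at hand for 4 of the 8 members, *Socs1*, *Socs3*, *Socs4* and *Cish*. This start is the GENCODE gene start for *Socs1* and lies 633 bases inside the GENCODE gene for *Cish* and 681 bases inside it for *Socs3*, so the windows of *Cish* and *Socs3* fall within the gene positions given above. The motif TTCNNNGAA occurs in 7.0% of 32851 promoters on either strand, TTCNNNNGAA in 5.9% and GAAANNGAA in 7.1%. *Socs3* (chr11:117969367-117969616, minus strand) holds TTCNNNGAA once, at bases 154 to 146 before the RefSeq start. *Socs1* (chr16:10785537-10785786, minus strand) holds GAAANNGAA at bases 83 to 75 and 77 to 69, which overlap. None of the letters searched is in this window of *Socs4* or *Cish*. A match is a description of letters and not a site shown to be bound. The windows with a match are printed 5′ to 3′ with the matches in capitals.
Socs1: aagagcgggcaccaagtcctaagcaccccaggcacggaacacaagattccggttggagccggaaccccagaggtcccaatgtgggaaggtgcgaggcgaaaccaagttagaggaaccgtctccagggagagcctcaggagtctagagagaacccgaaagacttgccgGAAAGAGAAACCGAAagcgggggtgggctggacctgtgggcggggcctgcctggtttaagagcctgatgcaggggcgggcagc
Socs3: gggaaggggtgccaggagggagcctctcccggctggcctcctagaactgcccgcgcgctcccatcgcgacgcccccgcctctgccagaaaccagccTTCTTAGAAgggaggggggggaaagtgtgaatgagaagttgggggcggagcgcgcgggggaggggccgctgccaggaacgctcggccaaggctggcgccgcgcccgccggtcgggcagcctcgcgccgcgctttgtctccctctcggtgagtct

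Markers of cell types were read in each library. Of 9 eosinophil markers, 6 to 8 had more than 3 counts in the 12-library set and 9 in the 6-library set. Sums are given in rising order within a group. Those of the eosinophil markers were 3842, 3989 and 5137 CPM in unstimulated libraries a to c, 3116, 3519 and 3533 CPM with *E. coli*, 3604, 4070 and 4445 CPM with IFN-γ, and 2892, 3124 and 3275 CPM with both, led by *Alox15* or *Ccr3*. Counts of *Alox15* and *Ccr3* reached 3732 and 3576 in this set, near its largest count of 4095, so that these sums may be understated. *Epx*, a granule protein gene, was at 0 in 5 of these 12 libraries. In the 6-library set the sums were 5171, 5291 and 6000 CPM in unstimulated libraries and 5030, 5104 and 5231 CPM with IL-4.

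Markers of other cells were also present and moved with some groups. The 9 macrophage markers, of which 7 to 9 had more than 3 counts in a library, summed to 829, 948 and 954 CPM in unstimulated libraries a to c, 601, 653 and 959 CPM with *E. coli*, 1133, 1182 and 1221 CPM with IFN-γ, and 986, 1040 and 1204 CPM with both, led by *Csf1r*. They summed to 2031, 2358 and 2638 CPM in unstimulated libraries d to f and 1791, 1870 and 2075 CPM with IL-4, led by *C1qc* or *C1qb*. The 6 B cell markers, led by *Ighm* and with 4 to 6 over 3 counts, summed to 117, 196 and 217 CPM in unstimulated libraries a to c and to 40.8, 44.5 and 76.5 CPM with *E. coli*, 58.2, 61.5 and 100.2 CPM with IFN-γ and 121, 128 and 134 CPM with both. For the 6-library set they summed to 23.7, 25.0 and 43.4 CPM without a stimulus and 58.65, 64.3 and 71.8 CPM with IL-4.

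The 8 neutrophil markers, of which 1 to 4 had more than 3 counts in the 12-library set, summed to 12.7, 12.7 and 19.8 CPM in unstimulated libraries a to c, 46.1, 61.6 and 129 CPM with *E. coli*, 58.4, 65.5 and 71.3 CPM with IFN-γ, and 49.7, 66.8 and 101 CPM with both, led by *S100a8*, while *Ltf*, *Mpo* and *Elane* were at 0 in many of these libraries. *S100a8* had a mean of 8.58 CPM in unstimulated libraries a to c and 72.1 CPM with *E. coli*. *Ly6g* was at 4.115 and 3.41 CPM and *S100a9* at 1.15 and 1.595 CPM in these groups, so the rise lay mostly in *S100a8*. With IFN-γ *Ly6g* was at 21.7 CPM, and with both stimuli at 13.9 CPM. The highest sum with *E. coli* was that of library 3, which also had the highest *Socs3* of its group and the highest sums of macrophage, B cell and mast cell markers. Across the 6-library set they summed to 17.2, 18.9 and 19.1 CPM without a stimulus and 14.65, 17.1 and 24.9 CPM with IL-4. The 5 mast cell markers, led by *Tpsb2* or *Cma1* in the 12-library set and by *Cpa3* in unstimulated library d, and with *Mcpt4* at 0 in many libraries, summed to 7.43, 8.24 and 9.69 CPM in unstimulated libraries a to c, 6.69, 9.79 and 34.6 CPM with *E. coli*, 13.1, 14.35 and 30.2 CPM with IFN-γ, and 35.8, 66.6 and 70.1 CPM with both stimuli, the group in which *Socs7* was highest. Within the 6-library set they summed to 6.46, 7.17 and 8.33 CPM without a stimulus and 7.81, 17.3 and 20.5 CPM with IL-4. The 6 T cell markers, mostly *Cd3d*, summed to at most 9.315 CPM in any library, with *Cd8a* at 0 in most. The part of these cells in the changes of the members was not tested.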

How the data were processed

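RNA of 18 eosinophil libraries was analysed from the counts per Ensembl gene that the authors deposited, which are whole numbers without normalization. The libraries were made by CEL-Seq2 and sequenced on a NextSeq by the study's methods, although sample labels also name a HiSeq instrument. The submitters' processing notes name TopHat2 2.1.0, HTSeq 0.6.1, STAR 2.7.2a and fastp 0.20.1, without saying for which libraries, and whether molecular identifiers were collapsed or strand was used is not given in the sources used here. Rows of the counter that name no gene, 21.1% to 39.4% of the counts in the 12-library set, were left out. Gene names, exons and positions came from GENCODE M21, which matched 98.3% and 99.7% of the gene rows of the 2 sets.

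R 4.3.3 was used with edgeR 4.0.16 (filterByExpr, TMM, quasi-likelihood test, Benjamini-Hochberg adjustment over all genes, adjusted p under 0.05) and DESeq2 1.42.0. One model held the 12-library set (9883 genes), another the 6-library set (10556 genes), and a last one all 18 libraries (10671 genes) for differences between responses. SEs are the log2 fold change divided by the root of F and are approximate. Members and lists were chosen with earlier results of these data known. Named genes are all members and genes taken from the 2 genes of each pathway role with the highest mean CPM over 18 libraries and from the 3 most similar genes of 4 members.

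The test was tried on simulated counts, 10 sets for each of 2 comparisons. The mean share of false calls was slightly above the 5% aimed at in the 12-library set and further above it in the 6-library set. Calls near the threshold in the 6-library set are therefore less sure than their adjusted p states. The estimated spread of *Cish*, *Socs1* and *Socs3* there was 0.62, 0.78 and 0.70 times that of genes of their level, and that of *Socs3* in the 12-library set was 2.68 times. Alternatives were other size factors, DESeq2, other filters, a fold threshold, left-out libraries, other sets of libraries and the replicate number as a block. Robust estimates of the spread, a correction for identifier collisions and a fit of the 9 stimulated libraries were added after the data were seen.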

Additional observations from a re-analysis of the deposited data

Results flagged for a closer look

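Several responses of the members differed between stimuli by a test of the difference itself, edgeR's quasi-likelihood test. For the interaction 2 of 8 members were called, where 4.62% of genes were. The IL-4 response differed from that to *E. coli* for 2 members (28.1% of genes) and from that to IFN-γ for 2 (27.8%). From the response to both stimuli it differed for 3 (39.2%). These IL-4 counts lie near the shares of all genes. The joint effect of IFN-γ and *E. coli* departed from the sum of their log2 effects by -0.81 for *Socs1* and by -0.78 for *Socs2*. The log2 response to IL-4 exceeded that to *E. coli* by 0.74 for *Socs1* and differed from it by -0.60 for *Socs2*. The former was 0.46 (adjusted p = 0.116, with a range of 4.50e-04 to 0.116) after the correction for identifier collisions, and the latter was -0.39 without unstimulated library d and missed the threshold in 8 of 18 fits without a library and with 10 counts in every library. Over all alternatives the latter ran from -0.88 to -0.39. The response to IL-4 exceeded that to IFN-γ by 0.70 for *Cish* and by 1.50 for *Socs2*. It differed from the response to IFN-γ with *E. coli* by 1.31 for *Socs2*, -1.05 for *Socs3* and -0.88 for *Socs7*. The value of *Socs7* missed the threshold in 7 of 18 fits without a library, and the interaction of *Socs2* missed it without IFN-γ library 1 (adjusted p = 0.0600, with a range of 3.73e-04 to 0.0600). The differences that involve IL-4 compare 2 sets of libraries, and stimulus and set cannot be told apart in them beyond each set's own unstimulated libraries.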

How the results depend on the processing

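Of 1853 log2 values of members recomputed under alternatives, 1753 kept their direction and their side of the threshold, 47 no longer passed, 18 passed newly and 35 changed direction. Robust estimates of the spread changed no call of a member. When calls were limited to changes of at least a factor of 2, 1 member was called with *E. coli*, 3 with both stimuli, 2 with IL-4, 1 for both stimuli against IFN-γ, 1 for both against *E. coli*, 2 for *E. coli* against IFN-γ, 0 for the interaction, 0 for the IL-4 against the *E. coli* response, 1 for the IL-4 against the IFN-γ response and 2 for the IL-4 against the joint response. In the same order, 10.4%, 22.4%, 4.53%, 4.09%, 13.4%, 10.4%, 2.48%, 16.7%, 16.8% and 25.6% of genes were called. With IFN-γ, 2 members and 1187 of 9883 genes were called. With 10 counts in every library, 1 member was called for the IL-4 against the *E. coli* response (34.2% of genes), *Socs7* had 0.080 for the IL-4 against the IFN-γ response and *Cish* 0.10 for the IL-4 against the joint response. With all 6 unstimulated libraries as 1 group, *Cish* had 0.50 with IFN-γ and -0.64 with IL-4, and *Socs7* -0.26 with IL-4. After the correction for identifier collisions, 1 member was called for the IL-4 against the *E. coli* response (28.3% of genes), and *Socs1* had -0.18 and -0.049 for the IL-4 against the IFN-γ and joint responses. The cause of these changes was not tested.

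Leaving out each library in turn, the log2 value of *Socs7* ran from -0.085 to 0.26 with IFN-γ and from -0.15 to 0.18 with IL-4, and that of *Socs5* from -0.54 to 0.043 with both stimuli. For both stimuli against IFN-γ the ranges were -0.12 to 0.045 for *Socs1*, -0.36 to 0.22 for *Socs5* and -0.18 to 0.087 for *Socs6*, and for both against *E. coli* -0.15 to 0.053 for *Socs6*. For *E. coli* against IFN-γ they were -0.022 to 0.11 for *Socs4*, -0.13 to 0.14 for *Socs6* and -0.033 to 0.32 for *Socs7*. For the interaction 1 to 2 members were called (2.64% to 5.52% of genes), with -0.052 to 0.14 for *Cish*, -0.48 to 0.072 for *Socs3* and -0.015 to 0.16 for *Socs4*. For the IL-4 against the *E. coli* response 1 to 3 members were called (21.3% to 29.6% of genes). The IL-4 against the IFN-γ response gave -0.28 to 0.17 for *Socs7*, and the IL-4 against the joint response -0.16 to 0.027 for *Cish* and -0.53 to 0.085 for *Socs5*.

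Between pairs of stimuli, libraries of the same replicate number had a mean r of residuals of 0.052, 0.111 and 0.166, with single values from -0.045 to 0.331. The means for other pairs were -0.026, -0.054 and -0.082. Residuals were taken from the mean of each group, which nearly fixes these means, so they are no separate comparison. The r for the same number is weak and not of 1 sign, so the number was used as a block only as an alternative. With a replicate block on the 9 stimulated libraries, 3 members were called for both stimuli against IFN-γ, 3 for both against *E. coli* and 4 for *E. coli* against IFN-γ, where 15.1%, 36.5% and 29.1% of genes were called. A group left with fewer libraries is assumed to vary like the others. Depth limits *Socs5*, whose lowest count was 2.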
